A study of Mus musculus with 18 samples.

Results

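The second intratumoral (IT) dose of the EV-loaded STING agonist was compared with the first in whole-tumor RNA. Of the 18 tumors sequenced, 4 were given exoCDN2 (0.1 µg), chosen by the agent and the dose number in their labels, 2 of them after 1 dose and 2 after 2 doses. All were subcutaneous B16F10 tumors, a mouse melanoma line, in C57BL/6 mice, and all were taken 24 h after the last dose. CDN2 (named CL656 in the labels) is cAIM(PS)2 Difluor, a 3′-3′ cyclic dinucleotide (CDN) that activates STING, and exoCDN2 is CDN2 loaded into extracellular vesicles (EVs) purified from the human line HEK293 made to overexpress PTGFRN. The 2 doses were 3 days apart, so the tumors given 2 doses were also 3 days older under treatment, and the second injection and the added days cannot be told apart within these 4 tumors. The same step was therefore measured in the 2 tumors given PBS once and the 2 given PBS at both times, and in 2 and 2 tumors given free CDN2 (20 µg). The study calls the tumors of a group biological replicates, and the labels do not number the mice. The p-values rest on a spread pooled over the 16 tumors of 8 groups fitted. Besides the groups named above, these were 2 tumors given unloaded EVs once and 2 given free CDN2 (100 µg) once.

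STING is a sensor protein of the endoplasmic reticulum that switches on type I interferon genes and inflammatory cytokine genes when it binds a CDN. The secreted interferon then acts on neighbouring cells, where STAT proteins and IRF9 bind a short DNA element, the interferon-stimulated response element (ISRE), and raise a large set of interferon-stimulated genes. Interferon transcription is brief, whereas T cells and natural killer (NK) cells drawn by chemokines arrive later, make interferon gamma and release perforin and granzymes. B16F10 tumors are known to hold few T cells and to carry low MHC class I unless interferon raises it.

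Total expected counts were 48465555 and 42276054 in the tumors given 1 dose of exoCDN2 and 48938189 and 65983630 in those given 2 doses, within 21608895 to 65983630 over the series. The melanoma genes *Tyr*, *Dct* and *Mlana* were high in each of the 4 tumors (440.4 to 6818 CPM, counts scaled to library size with TMM factors), as the tissue label has it. Keratinocyte genes set the 2 tumors given 2 doses apart. The 15 genes of that list summed to 102 CPM in replicate 1 and 1.71 CPM in replicate 2, against 4.46 and 1.14 CPM after 1 dose, 240 and 134 CPM after 1 dose of PBS and 1.07 and 0.464 CPM after 2 doses of PBS. In the PBS step the list thus had a median of -8.60, with 15 of 15 genes below 0. *Krt5* and *Krt14*, keratins of basal epidermis, were at 18.7 and 19 CPM in that replicate 1 and at 0 counts in replicate 2. Skeletal muscle genes summed to 817 CPM in replicate 1 after 1 dose and to 245, 281 and 291 CPM in the other exoCDN2 tumors. The part of skin or muscle in the results below was not tested, and counts are given without each tumor in turn.

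Genes were called at a ratio over 2 and an adjusted p under 0.05 (edgeR, quasi-likelihood F test, Benjamini-Hochberg). Between 1 and 2 doses of exoCDN2, 1260 of 16927 genes tested were called (7.44%), 864 of them higher (5.10%) and 396 lower (2.34%), with a median log2 fold change over all genes of 0.03. These shares are the background for the counts of each list below. Of the gene lists, 8 of 25 inflammatory cytokine genes and 9 of 25 cell cycle genes fell and 0 rose. In the other direction, 24 of 27 T cell genes, 15 of 20 NK cell genes and 13 of 20 MHC class I genes rose and 0 fell, while the early interferon-stimulated genes split, with 11 higher and 18 lower of 65. From 1 to 2 doses of PBS, 186 genes were called (1.10%), 8 higher (0.0473%) and 178 lower (1.05%). The difference between the exoCDN2 step and the PBS step was called for 1154 genes (6.82%), 866 of them higher (5.12%) and 288 lower (1.70%). The exoCDN2 count was 175 without replicate 1 after 1 dose, 485 without replicate 2 after 1 dose, 259 without replicate 1 after 2 doses and 1245 without replicate 2 after 2 doses. In whole tumors, fewer cells of a type and less RNA per cell cannot be told apart.

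**Figure D1:**
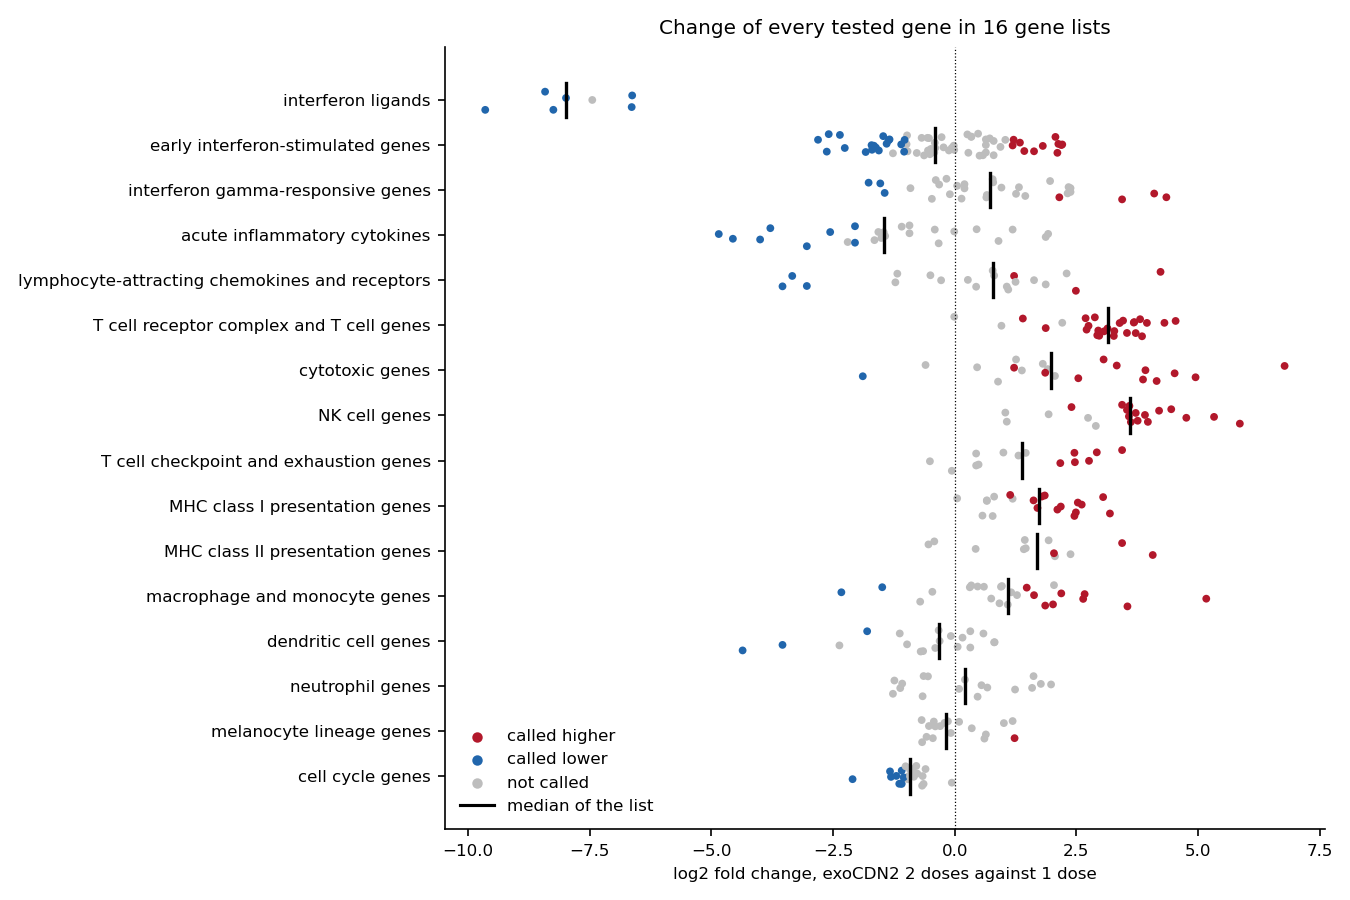
Log2 fold change (x axis) from 1 to 2 doses of exoCDN2 of each tested gene (points) in 16 gene lists (rows), coloured by call, with the median of each list as a black line. The fitted values of the interferon ligands, drawn between -9.65 and -6.63, are set by counts at or near 0 after the second dose and are no bounds, the early interferon-stimulated genes lie on both sides of 0, and the T cell and NK cell lists have medians of 3.14 and 3.61.

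The promoters of interferon genes are shown first because the same short run of letters stands before genes that fell, stayed and rose. In RefSeq promoters (GRCm38.p6), 250 bases before each start were searched on both strands, overlaps allowed, for the core of the ISRE, read as GAAA, then 2 bases of any kind, then GAAA (TTTC, 2 bases, TTTC on the other strand). It was present in 936 of 27025 genes with a promoter (3.46%). Among the early interferon-stimulated genes, it was present in 4 of the 12 with a promoter entry that fell (33.3%), in 2 of 8 that rose (25%) and in 14 of 31 that were not called (45.2%). Stretches of 80 bases are given 5′ to 3′ on the strand of the gene, with the matches in capitals. *Ifna4* (chr4:88841676-88841755, plus strand) is an interferon gene that fell, *Ifit1* (chr19:34640769-34640848, plus), *Rsad2* (chr12:26456513-26456592, minus) and *Cxcl10* (chr5:92349040-92349119, minus) are stimulated genes that fell, *Isg15* (chr4:156200839-156200918, minus) was not called, and *Oas3* (chr5:120777680-120777759, minus) and *Bst2* (chr8:71537543-71537622, minus) rose.
Ifna4: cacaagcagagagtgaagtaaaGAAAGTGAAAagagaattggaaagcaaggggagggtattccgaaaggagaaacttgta
Ifit1: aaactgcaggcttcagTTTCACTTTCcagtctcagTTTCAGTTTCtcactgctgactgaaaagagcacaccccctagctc
Rsad2: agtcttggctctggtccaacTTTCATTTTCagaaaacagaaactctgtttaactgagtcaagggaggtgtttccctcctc
Cxcl10: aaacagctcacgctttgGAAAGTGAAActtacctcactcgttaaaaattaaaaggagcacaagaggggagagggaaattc
Isg15: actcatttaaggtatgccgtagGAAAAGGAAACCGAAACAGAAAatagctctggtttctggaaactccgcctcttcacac
Oas3: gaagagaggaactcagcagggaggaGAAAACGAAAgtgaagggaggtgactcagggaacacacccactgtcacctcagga
Bst2: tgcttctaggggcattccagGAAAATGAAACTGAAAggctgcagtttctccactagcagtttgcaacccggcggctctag
A match of these letters is a description of the window and was not tested against the direction of change. Which proteins bind the matches, that of *Ifna4* included, was not tested either.

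Interferon transcripts, mostly *Ifnb1*, were present after the first dose of exoCDN2 and nearly absent after the second. The 19 type I and type III genes listed summed to 29.9 and 26.5 CPM after 1 dose, with 5 and 4 of them at 0. After 2 doses the sums were 0.157 and 0.043 CPM, with 17 and 18 of them at 0. *Ifnb1*, the gene of interferon beta, was at 24.1 and 20.1 CPM (1206 and 866 counts) after 1 dose and at 0.138 and 0.043 CPM (7 and 3 counts) after 2 doses. It fell by 7.99 on the log2 scale (SE 1.19, adjusted p = 0.0036 by edgeR), and the fall was called in each of the 4 fits that left out 1 tumor. *Ifna2*, one of the interferon alpha genes, went from 111 and 102 counts to 0 and 0, at least 38.9-fold lower when 3 counts per library are taken as the floor. *Ifna4* was at 0.98 and 0.976 CPM after 1 dose and at 0 after 2 doses, at least 16.6-fold lower. Both passed the limits of edgeR (adjusted p = 0.0059 and 0.008), which is a description for the reason given below. Of the 19 interferon genes listed, 7 were tested and 6 of them were called lower. The 7 passed the filter on low counts only through tumors given agonist, so a lower value after the second dose follows from the filter. Their count is a description, as are the calls and p-values of these genes, *Ifnb1* included. The remaining one, *Ifna1*, named after its values were seen, went from 24 and 22 counts to 0 and 0 (adjusted p = 0.077 by edgeR). Relative to the PBS step, where the genes were at or near 0 throughout, 0 of the 7 were called by edgeR, with 0 at an unadjusted p under 0.05 and 1 lower by DESeq2. Reads can be shared between the near-identical interferon alpha genes, so their split is uncertain. The number called was 2 and 3 without replicate 1 and 2 after 1 dose, and 1 and 3 without replicate 1 and 2 after 2 doses.

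With free CDN2, *Ifnb1* was at 14 and 54.9 CPM after 1 dose and at 10.5 and 1.07 CPM after 2 doses. The second-dose step of *Ifnb1* was lower with exoCDN2 than with CDN2 by 5.36 on the log2 scale (SE 1.44, adjusted p = 0.042 by edgeR). With only the 4 groups compared in the fit, edgeR called 0 genes for this difference, so the call was not kept. The value rests on few counts after 2 doses of exoCDN2 and, like the other *Ifnb1* calls, is a description. In PBS tumors the gene was at 0.132 and 0.12 CPM after 1 dose and at 0 after 2 doses. *Tmem173*, the gene of STING itself, was at 64.8 and 80.8 CPM after 1 dose of exoCDN2 and 93.3 and 79.3 CPM after 2 doses, and these ranges overlap (0.25 on the log2 scale, SE 0.15, adjusted p = 0.34 by edgeR). Of the 14 tested genes of the STING pathway list, 3 rose and 0 fell. They were *Irf7* and *Ifi204*, which are interferon-stimulated too, and *Nlrc3*, an inhibitor of STING signalling (0.78 and 0.627 CPM after 1 dose, 1.57 and 1.99 CPM after 2 doses, 1.34 on the log2 scale, adjusted p = 0.031 by edgeR). *Nlrc3* was called in 0 of the 4 fits without 1 tumor.

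**Figure D2:**
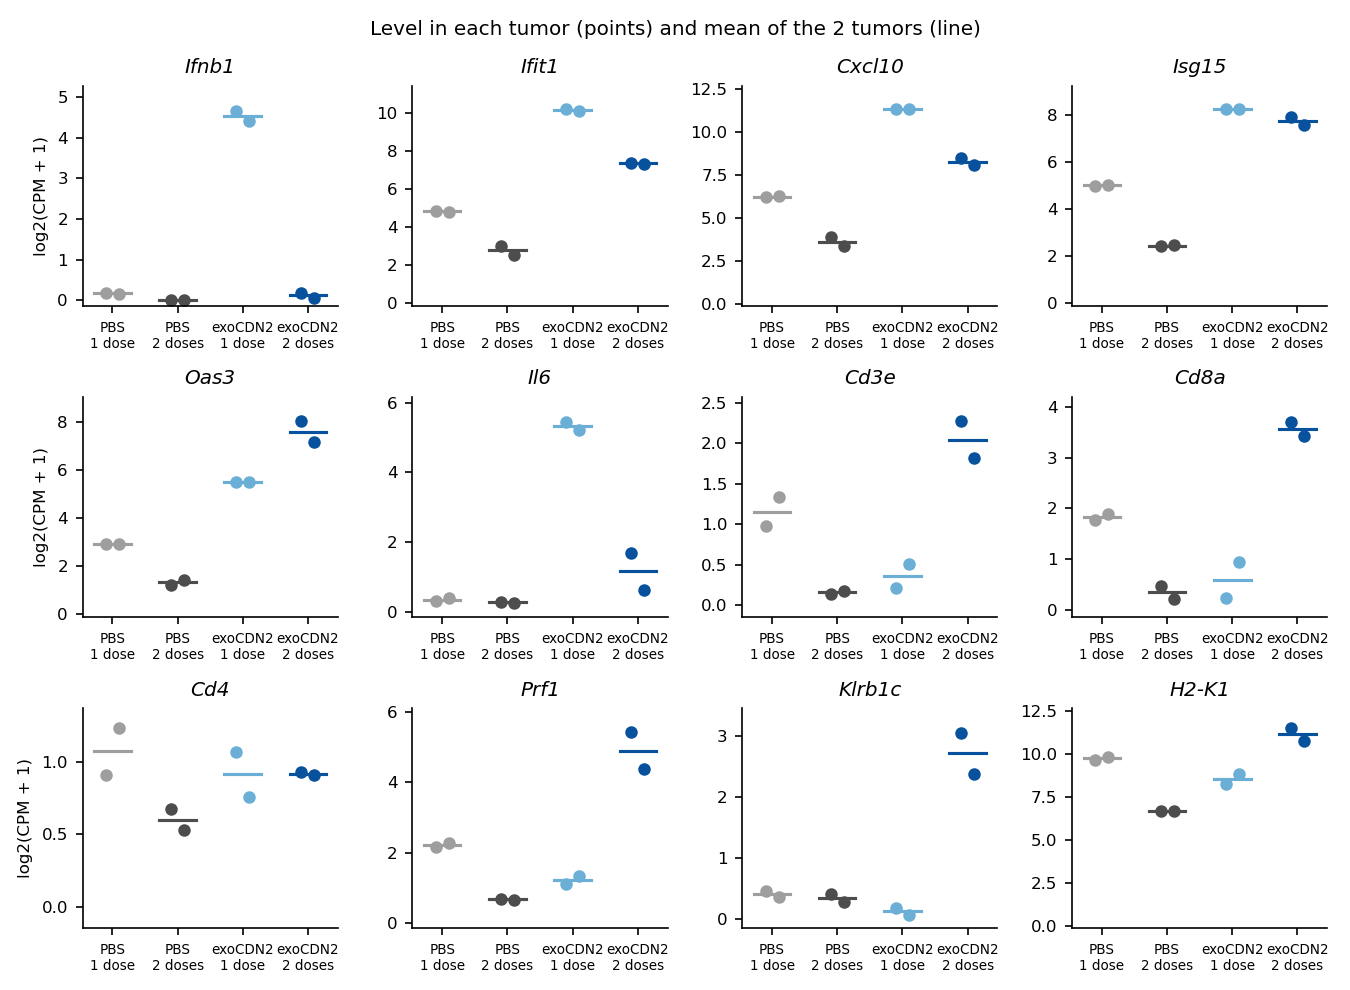
Level of 12 genes as log2(CPM + 1) on the y axis in each tumor given 1 or 2 doses of PBS or exoCDN2 (points), with the mean of the 2 tumors as a line. *Ifnb1*, *Ifit1*, *Cxcl10* and *Il6* are lower after the second dose of exoCDN2 than after the first, *Oas3*, *Cd3e*, *Cd8a*, *Prf1*, *Klrb1c* and *H2-K1* are higher, and the groups overlap for *Cd4*.

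The early interferon-stimulated genes did not fall back as a list. Of 65 tested, 18 fell, 11 rose and 36 were not called, with a median of -0.40 against 0.03 over all genes. *Ifit1*, which binds uncapped viral RNA, was at 1187 and 1133 CPM after 1 dose and 166 and 164 CPM after 2 doses, a fall of 2.81 on the log2 scale (SE 0.50, adjusted p = 0.0054 by edgeR). *Rsad2*, the gene of viperin, went from 3128 and 3437 CPM to 620.1 and 439 CPM, and its neighbour *Cmpk2*, a nucleotide kinase, from 925 and 1245 CPM to 203 and 158 CPM. Their log2 fold changes were -2.63 (SE 0.38, adjusted p = 0.0024 by edgeR) and -2.59 (SE 0.27, adjusted p = 0.0016 by edgeR). *Mx2*, a dynamin-like GTPase that blocks viruses, fell by 2.26 from 106 and 103 CPM to 23.6 and 19.8 CPM. *Ifit3* fell by 1.47, from 1364 and 1419 CPM to 572 and 435 CPM, and *Oasl1*, an oligoadenylate synthase-like protein, by 1.56, from 291 and 253 CPM to 114 and 70 CPM. *Usp18*, the protease that removes ISG15 and damps the interferon receptor, fell by 1.04, from 353 and 412 CPM to 214 and 157 CPM. *Trim21*, an antibody receptor and ubiquitin ligase outside the list and also interferon-stimulated, fell by 1.67, from 161 and 178 CPM to 60.2 and 46.4 CPM. In each of these genes both second-dose tumors lay below both first-dose tumors, as they did in 33.9% of all genes tested. The falls of *Cmpk2*, *Rsad2*, *Mx2* and *Trim21* were called in 4 of the 4 fits without 1 tumor, that of *Ifit1* in 2, that of *Usp18* in 1 and those of *Ifit3* and *Oasl1* in 0.

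Other genes of the same list rose at the second dose. *Oas3*, an oligoadenylate synthase that activates RNase L, was at 43.2 and 43.6 CPM after 1 dose and 257 and 140.3 CPM after 2 doses, a rise of 2.19 on the log2 scale (SE 0.29, adjusted p = 0.0016 by edgeR). *Bst2*, the gene of tetherin, which holds budding virus at the cell surface, rose by 1.81, from 170.2 and 214 CPM to 739 and 612 CPM (SE 0.26, adjusted p = 0.0024 by edgeR). *Irf7*, the factor that amplifies interferon alpha transcription, rose by 1.43 while the interferon alpha genes fell, from 133 and 146 CPM to 435 and 316 CPM (SE 0.26, adjusted p = 0.0056 by edgeR). *Phf11d* rose by 1.63, from 50.2 and 66.4 CPM to 221 and 139 CPM, and *Ifi204*, a DNA-binding protein of the p200 family, by 1.34, from 80.6 and 73.7 CPM to 240.3 and 149 CPM. *Isg15*, a ubiquitin-like modifier, was at 308 and 309 CPM after 1 dose and 241 and 193 CPM after 2 doses, and the log2 fold change of -0.51 was not called (SE 0.23, adjusted p = 0.18 by edgeR). The rises of *Bst2* and *Oas3* were called in 4 of the 4 fits without 1 tumor, that of *Phf11d* in 3, that of *Irf7* in 2 and that of *Ifi204* in 1. Over the list, 2, 6, 3 and 12 genes rose and 8, 11, 12 and 10 fell without replicate 1 after 1 dose, replicate 2 after 1 dose, replicate 1 after 2 doses and replicate 2 after 2 doses. Reads can be shared within the Ifit, Oas and Ifi200 families, so the split between family members is uncertain.

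Even the genes that fell stayed far above PBS. Against PBS after 2 doses, 64 of the 65 genes were higher (background 8.87%) and 0 lower (2.48%), with a median of 4.75, and against PBS after 1 dose 56 were higher (background 2.20%) and 0 lower (0.425%), with a median of 2.73. These comparisons share the exoCDN2 tumors with the second-dose step. The 18 genes that fell were above PBS by a median of 3.99 after 1 dose and 4.27 after 2 doses, and the 11 that rose by 1.26 and 5.02. The PBS tumors moved as well. From 1 to 2 doses of PBS, 41 of the 65 genes fell and 0 rose, with a median of -1.76. The keratinocyte sums were also lower after the second PBS dose (240 and 134 CPM to 1.07 and 0.464 CPM), and their part in this and in the values relative to PBS was not tested. *Ifit1* in PBS tumors, for example, was at 28.2 and 27.6 CPM after 1 dose and 7.24 and 4.8 CPM after 2 doses. Relative to the PBS step, 35 genes were higher and 0 lower after the second dose of exoCDN2, and the median became 1.64, a change of direction. *Ifit3*, *Usp18* and *Isg15* turned with it (1.45, 1.46 and 2.31, adjusted p = 0.057, 0.011 and 0.0021 by edgeR). The log2 difference between the steps was -0.60 for *Ifit1* (adjusted p = 0.67 by edgeR), -0.24 for *Rsad2* (adjusted p = 0.85), -0.21 for *Cmpk2* (adjusted p = 0.81) and -0.13 for *Trim21* (adjusted p = 0.83), so none of these falls was shown to differ from the fall in PBS tumors. Those of *Oas3* (4.33), *Bst2* (3.92), *Irf7* (3.48) and *Phf11d* (4.25) differed from PBS, each with an adjusted p of 5.6e-04 by edgeR.

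**Figure D3:**
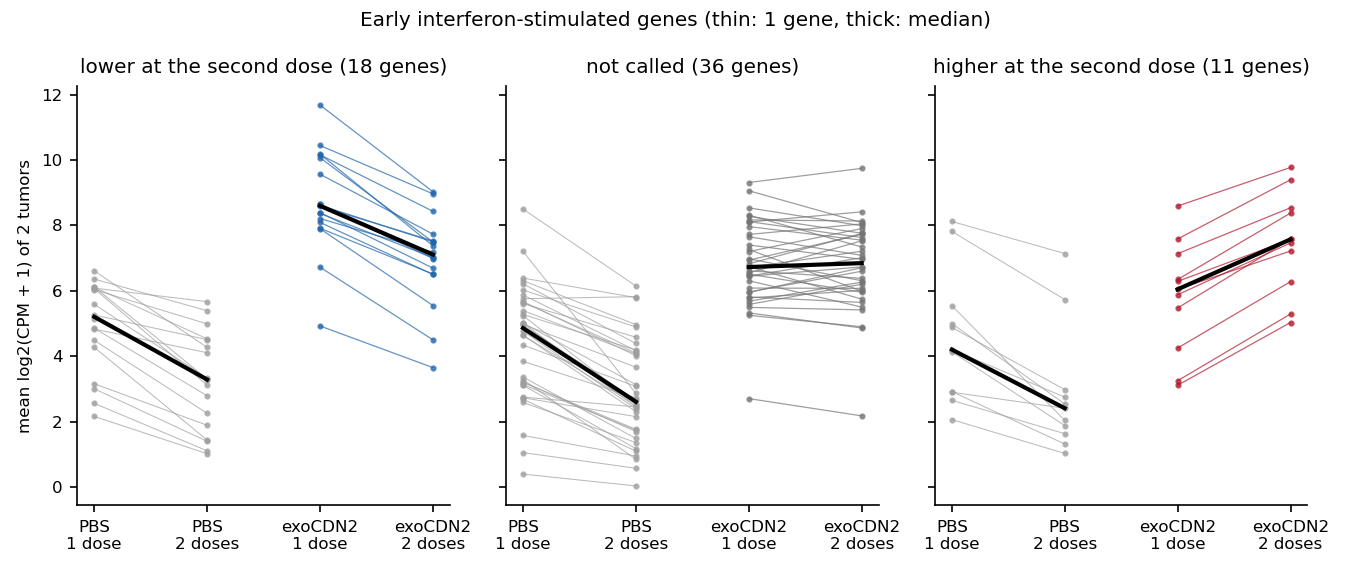
Mean level of the 2 tumors as log2(CPM + 1) on the y axis for each early interferon-stimulated gene (thin lines) and the median (thick lines), in tumors given 1 or 2 doses of PBS or exoCDN2. The panels hold the 18 genes called lower, the 36 not called and the 11 called higher at the second dose of exoCDN2. The PBS medians run down in all 3 panels and lie below the exoCDN2 medians.

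Genes that interferon gamma drives were spread around a median of 0.72, with 4 of 30 rising and 3 falling. The 4 that rose were guanylate-binding protein genes, whose products attack vacuoles of microbes, and *Gbp5* of the same family fell. *Gbp8* went from 0.76 and 2.07 CPM to 44.7 and 12.8 CPM (4.35 on the log2 scale, SE 0.83, adjusted p = 0.0073 by edgeR), and *Gbp10* from 5.86 and 32.1 CPM to 308 and 103 CPM (3.44, SE 0.82, adjusted p = 0.02 by edgeR). The fall of *Gbp5* was 1.53, from 248 and 277 CPM to 122 and 60.2 CPM, and that of *Irf1*, a transcription factor of both interferon types, 1.77, from 845 and 1009.9 CPM to 341 and 202 CPM (adjusted p = 0.0043 by edgeR). *Cxcl9*, the chemokine most tied to interferon gamma, was at 122 and 190.2 CPM and then 305 and 232 CPM, and the log2 fold change of 0.78 was not called (adjusted p = 0.19 by edgeR). *Cd274*, the gene of PD-L1, was at 254 and 283 CPM and then 199 and 86.8 CPM (-0.91, adjusted p = 0.19 by edgeR), and *Gbp2* at 604 and 744 CPM and then 963 and 527 CPM (0.14, adjusted p = 0.87 by edgeR). In PBS tumors 20 of the 30 genes fell and 0 rose, with a median of -3.91. The keratinocyte sums went from 240 and 134 CPM to 1.07 and 0.464 CPM in that step, and their part was not tested. Relative to PBS, 23 were higher and 0 lower, with a median of 4.25, and *Gbp5* and *Irf1* turned direction (2.38 and 1.07, adjusted p = 0.016 and 0.14 by edgeR). *Cd274*, not called in either, was at 1.29 relative to PBS (adjusted p = 0.24 by edgeR). *Irf1* was called in 4 of the 4 fits without 1 tumor, *Gbp8* and *Gbp10* in 2 and *Gbp5* in 1. The rises of the list numbered 0, 2, 0 and 7 and the falls 1, 1, 2 and 1 when the tumors were left out in the same order. The Gbp genes are close paralogs and share reads.

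Among the feedback genes, *Socs2*, an inhibitor of cytokine receptor signalling, fell by 1.76, from 16.3 and 15.3 CPM to 5.39 and 3.95 CPM (SE 0.31, adjusted p = 0.0054 by edgeR). *Socs1*, the main brake on interferon receptors, fell by 1.44, from 48.2 and 62.1 CPM to 26.5 and 14.1 CPM (adjusted p = 0.043 by edgeR, called in 0 of the 4 fits without 1 tumor). *Socs3* was at 86.4 and 85.8 CPM and then 66.5 and 37.5 CPM, which was not called (-0.73, adjusted p = 0.28 by edgeR). *Ptpn6*, the gene of the phosphatase SHP-1 of blood cells, rose by 1.6, from 35.6 and 37.9 CPM to 142 and 81.9 CPM. *Socs2* and *Ptpn6* were each called in 3 of the 4 fits without 1 tumor. Of 11 genes in the feedback list, 1 rose (background 5.10%) and 3 fell (2.34%), with a median of -0.60. Relative to the PBS step 3 were higher (background 5.12%) and 1 lower (1.70%), and the median was 0.42. *Socs1* turned direction (1.10, adjusted p = 0.33 by edgeR).

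Of 25 acute inflammatory cytokine genes tested, 8 fell and 0 rose, with a median of -1.46. *Il6*, the fever and acute-phase cytokine, was at 42.5 and 35.9 CPM after 1 dose and 2.22 and 0.555 CPM after 2 doses, a fall of 4.85 on the log2 scale (SE 0.95, adjusted p = 0.0082 by edgeR). *Il27*, a cytokine of myeloid cells, fell by 4.56, from 7.88 and 8.8 CPM to 0.492 and 0.228 CPM. *Tnf* fell by 2.56, from 21.4 and 21.5 CPM to 4.54 and 2.73 CPM (SE 0.56, adjusted p = 0.014 by edgeR), and *Tnfaip3*, the deubiquitinase that ends NF-κB signalling, by 2.05. *Cxcl1*, a chemokine for neutrophils, fell by 3.04, from 13.6 and 14.7 CPM to 2.91 and 0.597 CPM. *Il1b* was at 55.6 and 37.3 CPM and then 38.5 and 10.2 CPM, and *Ccl2* at 133 and 105 CPM and then 128 and 61.2 CPM, and neither was called (adjusted p = 0.41 and 0.66 by edgeR). The PBS step called 0 genes of the list in either direction (with 0 higher and 4 lower at an unadjusted p under 0.05, and 0 and 1 by DESeq2). The difference from the PBS step was called for 0 genes by edgeR, with 1 higher and 5 lower at an unadjusted p under 0.05 and 0 and 4 by DESeq2. At the second dose, 15 of the 25 genes were still above PBS and 0 below. *Il6* was called in 3 of the 4 fits without 1 tumor, *Il27* and *Tnfaip3* in 2 and *Tnf* and *Cxcl1* in 0. The list had 0, 3, 1 and 3 falls when the tumors were left out in the same order as above.

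The chemokines and their receptors split. *Cxcl10*, a ligand of CXCR3 on T and NK cells, fell by 3.04, from 2584 and 2532 CPM to 354 and 266 CPM (SE 0.40, adjusted p = 0.0016 by edgeR), and remained above PBS after 2 doses (13.8 and 9.17 CPM). *Ccl22*, a ligand of CCR4 made by mature dendritic cells, fell by 3.34, from 5.66 and 6.46 CPM to 0.59 and 0.597 CPM (adjusted p = 0.0016 by edgeR). *Ccl5*, made by cytotoxic lymphocytes as well as by stimulated tumor cells, rose by 1.22, from 98.1 and 84.3 CPM to 219 and 205 CPM (SE 0.33, adjusted p = 0.033 by edgeR). *Cxcr6*, a receptor of resident T and NK cells, rose by 4.23, from 7 and 19 counts to 315 and 326 counts (SE 0.70, adjusted p = 0.0042 by edgeR). *Cxcr3* itself was at 2.96 and 3.95 CPM and then 2.97 and 5.36 CPM, and the groups overlapped (0.27, adjusted p = 0.67 by edgeR). *Ccr7*, the receptor that takes mature dendritic cells and naive T cells to lymph nodes, fell by 3.54, from 10.4 and 10.9 CPM to 0.885 and 0.939 CPM. Of the 20 genes of the list, 3 rose and 3 fell. Against the PBS step 5 were higher and 2 lower, and the fall of *Cxcl10* was not shown to differ from it (-0.36, adjusted p = 0.76 by edgeR). *Ccl22*, *Cxcl10* and *Ccr7* were called in 4 of the 4 fits without 1 tumor, *Cxcr6* in 3 and *Ccl5* in 0.

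Most T cell genes were called higher after the second dose. Of 27 tested, 24 rose and 0 fell, with a median of 3.14. *Cd3e*, a signalling chain of the T cell receptor complex, was at 0.16 and 0.418 CPM after 1 dose and 3.84 and 2.52 CPM after 2 doses, a rise of 3.46 on the log2 scale (SE 0.61, adjusted p = 0.0054 by edgeR). *Cd3d* rose by 3.39, from 0.24 and 0.465 CPM to 4.05 and 3.34 CPM, and *Trac*, the constant region of the alpha chain, by 3.85, from 0.14 and 0.372 CPM to 3.8 and 3.57 CPM. *Cd8a*, the coreceptor of cytotoxic T cells that mouse dendritic cells can also carry, rose by 4.31, from 0.18 and 0.929 CPM to 12.1 and 9.7 CPM (SE 0.81, adjusted p = 0.0069 by edgeR). *Cd4* was at 1.1 and 0.697 CPM and then 0.905 and 0.882 CPM, with overlapping groups and a log2 fold change of -0.01 (SE 0.77, adjusted p = 1 by edgeR). *Il2rb*, the receptor chain for IL-2 and IL-15 on CD8 T cells and NK cells, rose by 3.27, from 1.6 and 3.3 CPM to 28.5 and 18.7 CPM. *Skap1*, an adaptor of the T cell receptor, rose by 3.95. The counts behind these values after 1 dose were low (8 and 18 for *Cd3e*, 9 and 40 for *Cd8a*), so the size of each rise rests on few reads.

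The T cell rise was larger than the step in PBS tumors for 24 of the 27 genes, with a median difference of 5.0. The PBS step itself ran down, with a median of -1.78, 26 of the 27 genes below 0 and 1 called lower. Keratinocyte sums fell in that step too, and their part was not tested. *Cd8a* was at 2.43 and 2.68 CPM after 1 dose of PBS and 0.392 and 0.155 CPM after 2 doses, so its level after 1 dose of exoCDN2 lay below that of PBS. Against PBS of the same dose number, 0 genes of the list were called after 1 dose by edgeR (median -0.99, with 1 higher and 9 lower at an unadjusted p under 0.05 and 0 and 2 by DESeq2), and 26 were higher after 2 doses, with a median of 4.11. Without replicate 1 after 1 dose, 0 genes of the list were called. Without replicate 2 after 1 dose, replicate 1 after 2 doses and replicate 2 after 2 doses, 11, 4 and 22 rose and 0 fell. *Skap1*, *Trac* and *Il2rb* were called in 3 of these 4 fits, and *Cd3d*, *Cd3e* and *Cd8a* in 2. The log2 fold changes of *Cd8a* over the 4 fits ran from 3.55 to 5.89, and those of *Cd3e* from 2.92 to 4.28. The keratinocyte-rich replicate 1 after 2 doses had the higher summed level of the list (189 CPM, against 136 in replicate 2).

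**Figure D4:**
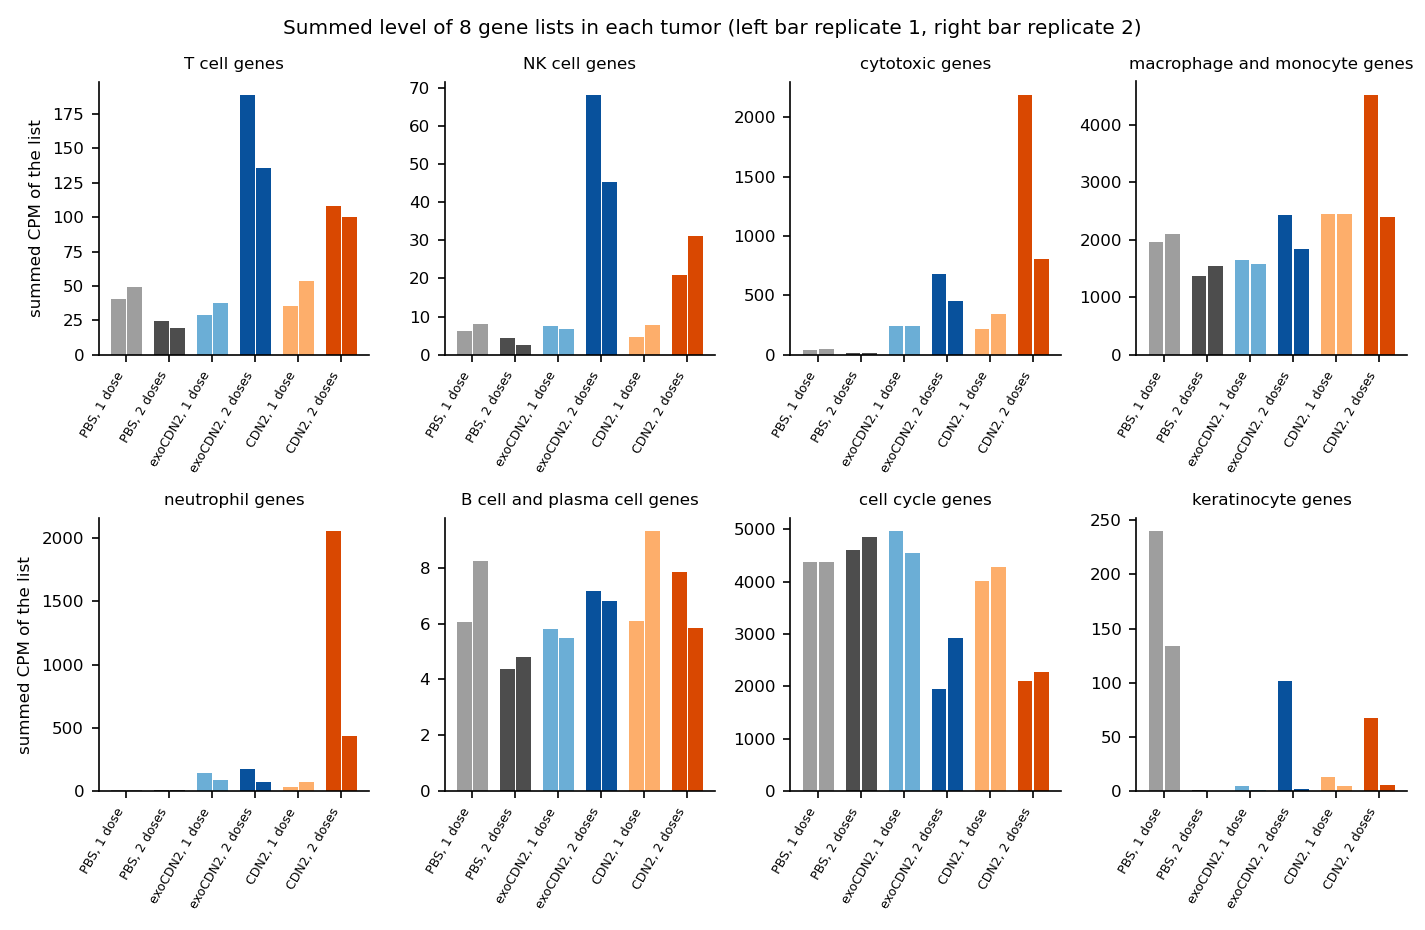
Summed CPM (y axis) of 8 gene lists in each tumor given 1 or 2 doses of PBS, exoCDN2 or CDN2 (20 µg) (bars, replicate 1 left). T cell and NK cell sums are highest in the 2 tumors given 2 doses of exoCDN2, neutrophil sums in the 2 tumors given 2 doses of CDN2, and keratinocyte sums in the 2 tumors given 1 dose of PBS (240 and 134 CPM).

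Of 20 NK cell genes tested, 15 rose, 5 were not called and 0 fell, with a median of 3.61 and 20 of 20 above 0. *Klrb1c*, the gene of NK1.1, went from 7 and 2 counts to 370 and 295 counts, a rise of 5.86 on the log2 scale (SE 0.86, adjusted p = 0.0027 by edgeR). *Klrc1*, the gene of the inhibitory receptor NKG2A, rose by 4.76, from 0.2 and 0.348 CPM to 8.32 and 6.61 CPM, and *Klra7*, a Ly49 receptor, by 5.33, from 0.06 and 0.116 CPM to 4.94 and 2.29 CPM. *Cd244a*, an activating receptor, rose by 3.44. *Ncr1*, the gene of NKp46 and the marker most restricted to NK cells, was at 0.24 and 0.302 CPM and then 2.07 and 2.01 CPM, which was not called (2.90, SE 1.02, adjusted p = 0.085 by edgeR). *Klrb1c*, *Klrc1*, *Klra7* and *Cd244a* were called in 4 of the 4 fits without 1 tumor, and the list had 4, 4, 4 and 14 rises when the tumors were left out in the same order as above. The Klra genes are near copies of each other and share reads. Of the 20, 8 were higher and 0 lower relative to the PBS step.

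Of the cytotoxic effector genes, 11 of 20 rose and 1 fell, with a median of 1.98. *Prf1*, the gene of perforin, was among the 6 higher protein-coding genes with the smallest p over all genes, at 1.16 and 1.51 CPM and then 41.6 and 19.8 CPM (4.52, SE 0.52, adjusted p = 0.0016 by edgeR). *Gzma* rose by 4.15, from 3.34 and 3.07 CPM to 75.8 and 38.1 CPM, and *Gzmb* by 3.33, from 7.96 and 10.4 CPM to 124 and 60 CPM, both genes of granzymes that perforin lets into target cells. *Nkg7*, a granule membrane protein, rose by 4.95, from 0.44 and 0.836 CPM to 25 and 14.3 CPM. *Tnfsf10*, the gene of the death ligand TRAIL and an interferon-stimulated gene, fell by 1.89, from 54.3 and 67.7 CPM to 19.5 and 13.3 CPM (adjusted p = 0.0037 by edgeR). *Tnfsf10* turned direction relative to the PBS step (0.81, adjusted p = 0.33 by edgeR). *Ifng*, the gene of interferon gamma, was at 4.54 and 8.18 CPM and then 5.15 and 3.21 CPM, with overlapping groups (-0.60, SE 0.80, adjusted p = 0.68 by edgeR). It was at 0.949 and 1.56 CPM after 1 dose of PBS and at 0.041 and 0 CPM after 2 doses. *Prf1*, *Nkg7* and *Tnfsf10* were called in 4 of the 4 fits without 1 tumor and *Gzma* and *Gzmb* in 3. The list had 2, 7, 7 and 9 rises.

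Among checkpoint and exhaustion genes, 6 of 14 rose and 0 fell, with a median of 1.39. *Pdcd1*, the gene of PD-1, went from 0.36 and 0.929 CPM to 3.72 and 3.37 CPM (2.46, SE 0.56, adjusted p = 0.016 by edgeR), and *Havcr2*, the gene of TIM-3, from 2.1 and 1.83 CPM to 12.3 and 9.63 CPM (2.47, SE 0.44, adjusted p = 0.0056 by edgeR). *Tox*, a factor of T cell exhaustion, rose by 2.92 from 0.06 and 0.163 CPM to 0.708 and 0.981 CPM. *Lag3* (1.46, adjusted p = 0.067 by edgeR) and *Ctla4* (0.44, adjusted p = 0.65 by edgeR) were not called. Of the 17 lymphocyte transcription factors, 3 rose and 0 fell. *Tbx21*, the gene of T-bet, went from 0.34 and 0.441 CPM to 2.54 and 1.76 CPM, *Runx3*, a factor of CD8 T cells, from 0.82 and 1.67 CPM to 9.2 and 6.1 CPM, and *Bcl6* from 3.66 and 4.67 CPM to 19.7 and 13.1 CPM. *Tcf7*, the gene of TCF1 in naive and memory T cells and not restricted to them, was at 11.4 and 15.9 CPM and then 11.9 and 12.5 CPM (-0.16, adjusted p = 0.66 by edgeR). *Eomes* (1.93, adjusted p = 0.054) and *Foxp3*, the gene that marks regulatory T cells (-0.32, adjusted p = 0.8), were not called by edgeR. *Bcl6* was called in 4 of the 4 fits without 1 tumor, *Pdcd1* and *Tbx21* in 2, *Havcr2* and *Runx3* in 1 and *Tox* in 0. The lists had 1, 2, 1 and 4 rises of checkpoint genes and 1, 2, 1 and 3 of factors.

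Genes of B cells and plasma cells stayed near the filter on low counts. Of the 19 genes listed 11 were tested, and 0 were called by edgeR, 8 of them above 0 and 3 below. None passed an unadjusted p of 0.05, and 0 were called by DESeq2. *Ms4a1* had 2 and 9 counts after 1 dose and 9 and 7 after 2 doses, and *Jchain* 4 and 1 and then 6 and 15 counts. The summed level of the list was 5.8 and 5.48 CPM after 1 dose and 7.16 and 6.81 CPM after 2 doses.

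Of 20 MHC class I presentation genes tested, 13 rose, 7 were not called and 0 fell, with a median of 1.74 and 20 of 20 above 0. *H2-K1*, a classical class I heavy chain, was at 304 and 443 CPM after 1 dose and 2844 and 1728 CPM after 2 doses, a rise of 2.61 on the log2 scale (SE 0.39, adjusted p = 0.0028 by edgeR). *B2m*, the light chain of all class I molecules, rose by 1.85, from 629.6 and 880 CPM to 2989.9 and 2468 CPM. *H2-T23*, the gene of the nonclassical molecule Qa-1 that NKG2A recognises, rose by 3.19, from 37 and 52.6 CPM to 547 and 274 CPM, and *Psme1*, a proteasome activator subunit, by 1.79. *Tap1*, the peptide transporter and an early interferon gene, was at 223 and 271 CPM and then 491 and 287 CPM, which was not called (0.66, adjusted p = 0.23 by edgeR). The PBS tumors again ran the other way. In them 17 of the 20 genes fell and 0 rose, with a median of -2.61, and *H2-K1* went from 805 and 879.9 CPM to 101 and 102 CPM, in the step in which the keratinocyte sums went from 240 and 134 CPM to 1.07 and 0.464 CPM. Against PBS of the same dose number, 0 of the 20 were called after 1 dose by edgeR (median -0.33). At an unadjusted p under 0.05, 1 was higher and 7 lower, and DESeq2 called 0 and 3. After 2 doses 19 were above PBS (median 4.04), a gap that holds the fall in PBS tumors as well as the rise with exoCDN2. Relative to the PBS step 19 were higher and 0 lower. Without replicate 1 after 1 dose, 0 genes of the list were called, and without the others in turn 8, 6 and 14 rose. *H2-K1*, *B2m*, *H2-T23* and *Psme1* were called in 3 of the 4 fits. The H2 class I genes share reads.

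MHC class II genes were uneven between the 2 tumors given 2 doses. *H2-Aa* was at 46.5 and 55.4 CPM after 1 dose and at 314 and 74.2 CPM after 2 doses, *Cd74*, the invariant chain, at 69.2 and 90.5 CPM and then 525 and 142 CPM, and their regulator *Ciita* at 1.96 and 5.64 CPM and then 31.1 and 8.49 CPM. The log2 fold changes of 1.93, 2.06 and 2.38 were not called (adjusted p = 0.094, 0.06 and 0.073 by edgeR). In each, replicate 1, which also held the keratins, was the higher. Relative to the PBS step *H2-Aa* (3.86), *Cd74* (4.30) and *Ciita* (6.19) were called. There 8 of the 12 genes were higher and 0 lower, with a median of 3.74. The keratinocyte sums also fell in the PBS step, and their part was not tested. The 3 members that passed the test of the second against the first dose were *H2-DMb1*, *H2-DMa* and *Ctss*. *H2-DMb1* rose by 3.44, from 7.14 and 10.9 CPM to 144 and 51 CPM (SE 0.54, adjusted p = 0.0037 by edgeR), and *H2-DMa* by 4.07, from 2.26 and 4.23 CPM to 88.6 and 20.4 CPM, both chains of the peptide-loading molecule H2-M. *Ctss*, a protease of antigen-presenting cells, rose by 2.04. They were called in 3, 2 and 1 of the 4 fits without 1 tumor. Of 12 tested, 3 rose and 0 fell, and without replicate 1 after 2 doses 1 rose. It was 0, 2 and 6 without replicate 1 after 1 dose, replicate 2 after 1 dose and replicate 2 after 2 doses.

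Of 25 macrophage and monocyte genes tested, 9 rose and 2 fell, *Mrc1* and *Cd163*, with a median of 1.09. With replicate number as a block in the fit, 9 rose and 0 fell, so neither fall was called. *Ly6c2*, a marker of inflammatory monocytes that is not restricted to them, went from 5.38 and 6.74 CPM to 274 and 162 CPM. The rise was 5.17 on the log2 scale (SE 0.71, adjusted p = 0.0021 by edgeR). *Ccr2*, the receptor that takes these cells out of the bone marrow, rose by 3.55, from 4.88 and 3.23 CPM to 56.2 and 38.7 CPM, and *Fcgr1*, a high-affinity receptor for antibodies, by 2.67, from 12.9 and 13.5 CPM to 108 and 60 CPM. *Lrrc25*, a leukocyte gene outside the lists and among the 6 with the smallest p, rose by 3.92, from 1.24 and 1.23 CPM to 25.1 and 12.4 CPM. *Mrc1*, the mannose receptor of tissue macrophages, fell by 1.49, from 32.3 and 29.2 CPM to 13.9 and 8.09 CPM (SE 0.45, adjusted p = 0.05 by edgeR after rounding, just under the limit), and *Cd163*, a scavenger receptor of the same cells, by 2.33, from 2.74 and 2.69 CPM to 0.826 and 0.27 CPM. The general markers *Adgre1* (21.8 and 15.6 CPM, then 46.8 and 33 CPM) and *Csf1r* (16.4 and 14 CPM, then 38.1 and 30.1 CPM) were not called (adjusted p = 0.15 and 0.063 by edgeR). *Ly6c2*, *Ccr2*, *Fcgr1* and *Lrrc25* were called in 4 of the 4 fits without 1 tumor and *Mrc1* and *Cd163* in 0. Against the PBS step 13 of the 25 were higher and 0 lower, with *Mrc1* at -1.37 and *Cd163* at -1.77 (adjusted p = 0.22 and 0.3 by edgeR). The rises of the list numbered 3, 3, 3 and 6 and the falls 0 in each fit.

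Of the dendritic cell genes, 0 of 19 rose and 3 fell, *Ccr7*, *Cd83* and *Ccl17*, which mark mature, migrating cells. *Cd83* fell by 1.80, from 6.64 and 6.27 CPM to 1.63 and 2.06 CPM, and *Ccl17* went from 8 and 13 counts to 1 and 0 counts. The markers of the cross-presenting lineage, *Xcr1* (0.24 and 0.302 CPM, then 0.57 and 0.384 CPM) and *Clec9a* (0.58 and 0.511 CPM, then 0.295 and 0.256 CPM), were low and not called (adjusted p = 0.6 and 0.5 by edgeR). *Siglech*, a marker of plasmacytoid dendritic cells, was under the filter on low counts. *Cd83* was called in 3 of the 4 fits without 1 tumor and *Ccl17* in 0. Against the PBS step *Ccr7* was called, and *Cd83* (-1.20, adjusted p = 0.099 by edgeR) and *Ccl17* (adjusted p = 0.058) were not.

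Of 17 neutrophil genes tested, 0 were called by edgeR, 10 above 0 and 7 below. At an unadjusted p under 0.05, 2 were higher and 0 lower, and DESeq2 called 1 higher and 0 lower. *S100a8* was at 13.6 and 8.36 CPM after 1 dose and 11.8 and 3.31 CPM after 2 doses, and *Cxcr2* at 8.1 and 4.44 CPM and then 4.19 and 1.05 CPM. Of 20 endothelial genes, 1 rose and 2 fell, against 5.10% and 2.34% of all genes, and with a tumor left out 0 to 1 rose and 0 to 2 fell. *Pecam1* was at 35.2 and 35.6 CPM and then 37.5 and 37.6 CPM (0.09, SE 0.25, adjusted p = 0.87 by edgeR), whereas *Sele*, the selectin that activated endothelium shows to leukocytes, fell by 3.22, from 3.84 and 2.14 CPM to 0.354 and 0.284 CPM (SE 0.62, adjusted p = 0.0078 by edgeR). *Selp*, its relative, fell by 3.14, from 18.8 and 7.57 CPM to 1.69 and 1.31 CPM. *Cldn5*, a tight junction protein, rose by 2.50, from 0.44 and 0.488 CPM to 2.62 and 2.65 CPM. *Sele* and *Cldn5* were called in 2 of the 4 fits without 1 tumor and *Selp* in 1. The falls of *Sele* and *Selp* did not pass against the PBS step (adjusted p = 0.076 and 0.054 by edgeR).

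Of 25 cell cycle genes, 9 fell and 0 rose, with a median of -0.92 and 25 of 25 below 0. *Ccnb2*, a mitotic cyclin, was at 93.6 and 93.4 CPM and then 37.1 and 44.1 CPM, a fall of 1.20 (SE 0.13, adjusted p = 0.0016 by edgeR). *Ccnb1* fell by 1.31, from 194 and 175 CPM to 60.2 and 88.3 CPM, and *Aurka*, a mitotic kinase, by 1.09. *Mki67* fell by 2.10, from 366 and 333 CPM to 52.5 and 110 CPM (SE 0.61, adjusted p = 0.043 by edgeR), which was not shown to differ from the PBS step (-1.19, adjusted p = 0.45 by edgeR), and *Top2a* was not called (-1.01, adjusted p = 0.11 by edgeR). Relative to the PBS step, 10 of the 25 were lower and 0 higher. The list had 4, 8, 2 and 19 falls when the tumors were left out in the same order as above. *Ccnb1* and *Ccnb2* were called in 4 of these fits, *Aurka* in 3 and *Mki67* in 0. Of the 18 melanocyte genes, 1 rose, a share close to the 5.10% of all genes. It was *S100b* (1.23, adjusted p = 0.0063 by edgeR, called in 2 of the 4 fits without 1 tumor), which did not pass against the PBS step (1.10, adjusted p = 0.057 by edgeR). *Tyr* was at 835 and 801 CPM and then 617 and 801 CPM. *Dct* was at 6818 and 6709.6 CPM and then 4104 and 4374 CPM, which passed the limit on p but not that on the ratio (-0.67, adjusted p = 0.0061 by edgeR). Of the 16 hypoxia genes only *Bnip3* was called (1.03, adjusted p = 0.028 by edgeR, called in 0 of the 4 fits without 1 tumor), while *Car9* was at 63.4 and 134 CPM and then 199 and 191 CPM (adjusted p = 0.086 by edgeR).

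Of the remaining protein-coding genes with the smallest p, *Fblim1*, a filamin-binding protein, rose by 2.74, from 3.5 and 4.76 CPM to 30.7 and 24.3 CPM (SE 0.27). *Apod*, a lipid carrier, rose by 2.85, from 8 and 8.5 CPM to 63.7 and 54.9 CPM (SE 0.33), and *Dmpk*, a kinase of muscle and other cells, by 2.02, from 5.68 and 5.27 CPM to 26.7 and 17.7 CPM (SE 0.23). *Zbtb5*, a zinc finger protein, fell by 1.45, from 71.1 and 82.1 CPM to 30.8 and 25.4 CPM (SE 0.15). Each had an adjusted p of 0.0016 by edgeR, and each was called in 4 of the 4 fits without 1 tumor. *Gm10131*, a predicted gene, fell by 2.62, from 25.9 and 23.1 CPM to 2.97 and 4.94 CPM (SE 0.22, adjusted p = 0.0011 by edgeR), and was called in 4 of the 4 fits.

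The step was then set against that of free CDN2 (20 µg), the agonist without EVs at a labelled amount that was larger than that of exoCDN2, so doses are not matched. The CDN2 step called 3521 genes (20.8%), 2444 higher (14.4%) and 1077 lower (6.36%). In its 2 second-dose tumors 27.1% of genes lay over 2-fold apart, against 6.41% for exoCDN2, and these tumors held muscle genes at a sum of 6145 and 3219 CPM. The difference between the steps was called for 1407 genes (8.31%), 503 higher with exoCDN2 (2.97%) and 904 lower (5.34%). With only the 4 groups compared in the fit, edgeR called 0 of 16351 genes (1620 higher and 1954 lower at an unadjusted p under 0.05). No call of a difference from CDN2, above, here or below, was thus kept in that fit, and the cause was not tested. The number was 633 without replicate 1 and 4847 without replicate 2 of the tumors given 2 doses of CDN2, and 46 without replicate 1 of those given 1 dose. It was 5, 339, 51 and 199 without the exoCDN2 tumors in the same order as above.

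Inflammatory cytokine and neutrophil genes were lower in the exoCDN2 step than in the CDN2 step. Of the 25 cytokines, 13 rose and 0 fell with CDN2, and the difference was lower with exoCDN2 for 15 and higher for 0, with a median of -3.91. *Il1b* was at 14.3 and 23.4 CPM after 1 dose of CDN2 and 283 and 56.8 CPM after 2 doses, and the steps differed by -4.10 (SE 0.99, adjusted p = 0.03 by edgeR). All 17 neutrophil genes rose with CDN2, and 12 of them were lower in the difference. *S100a8* was at 2.88 and 7.18 CPM after 1 dose of CDN2 and 249 and 54.3 CPM after 2 doses (difference -5.46, adjusted p = 0.024 by edgeR). NK cell genes rose in both steps (11 of 20 with CDN2, with a median of 2.45), and the difference was higher with exoCDN2 for 1 of 20, *Klrc1*, and lower for 0. Of the 20 cytotoxic genes 11 rose and 1 fell with CDN2, and the difference was higher for 3 and lower for 1. Of the T cell genes, 3 of 27 rose with CDN2, with a median of 0.50, and the difference was higher with exoCDN2 for 7 genes and lower for 0, with a median of 2.49. *Cd8a* was at 1.98 and 2.24 CPM after 1 dose of CDN2 and 2.05 and 2.12 CPM after 2 doses, and the steps differed by 4.32 (SE 1.07, adjusted p = 0.032 by edgeR). *Cd3e*, *Trac*, *Pdcd1*, *Tox* and *Tbx21* differed in the same direction. *Gzmb* and *Gzma* did not pass in the difference (0.95 and 0.31, adjusted p = 0.34 and 0.82 by edgeR), and both also lay higher after 2 doses of CDN2 than after 1. Of the 12 MHC class II genes, 5 fell with CDN2 and 1 rose, and 6 were higher in the difference, among them *H2-DMb1* by 5.07 (SE 0.74, adjusted p = 0.01 by edgeR). Of the 65 early interferon-stimulated genes, 5 were lower with exoCDN2, *Isg15* and *Usp18* among them, and 0 higher, against 5.34% and 2.97% of all genes (differences of -1.84 and -1.24 for these 2 genes, adjusted p = 0.015 and 0.027 by edgeR).

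**Figure D5:**
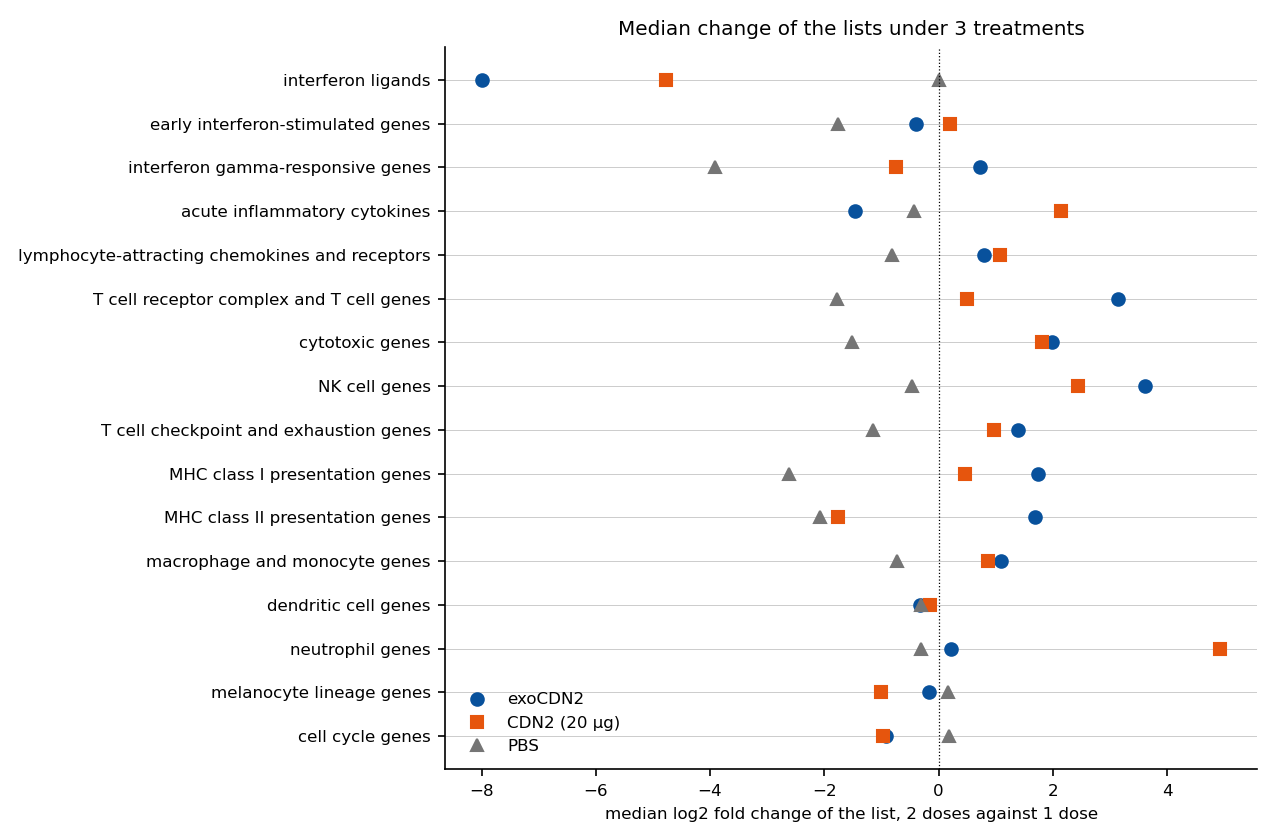
Median log2 fold change (x axis) from 1 to 2 doses of 16 gene lists (rows) in tumors given exoCDN2 (circles), CDN2 (20 µg, squares) and PBS (triangles). Medians of the neutrophil list are 0.21 with exoCDN2 and 4.93 with CDN2, those of the T cell list 3.14 and 0.50, and those of the MHC class I list 1.74 with exoCDN2 and -2.61 with PBS.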

How the data were processed

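RNA from 18 B16F10 tumors was sequenced by the authors on an Illumina HiSeq with paired reads, aligned to mouse GRCm38 (mm10 in the submitters' processing notes) with OSA and quantified with RSEM on Ensembl genes. The deposited values are expected counts per gene, which were rounded to whole numbers here. The columns carry group and replicate number, and 2 tumors labelled with CDN2 but no amount were left out, so 16 tumors of 8 groups were fitted, each group with 1 mean.

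Genes were filtered with filterByExpr (minimum count 10, minimum total 15), scaled by TMM and tested with edgeR 4.0.16 in R 4.3.3 (quasi-likelihood test, Benjamini-Hochberg adjustment over 16927 genes), and a standard error was taken as the size of the log2 fold change over the root of F. The limits of adjusted p under 0.05 and ratio over 2 follow the study, which used DESeq2. Here DESeq2 1.42.0 was an alternative, beside RLE factors, no filter, other sets of tumors, a replicate block and each tumor left out. With 8 residual degrees of freedom shared over the groups, a group left with 1 tumor is assumed to vary like the others. An exact two-sided permutation test of 2 against 2 tumors cannot go below p = 0.333 and was not used. The procedure was tested on simulated counts.

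The tumors, the 27 gene lists (535 genes, 502 tested, 15 in several lists) and the comparisons were chosen with earlier results of these data known. Named genes are those marked as key in the lists, up to 3 genes per list and direction with the smallest p, and the 6 protein-coding genes per direction with the smallest p over all genes and groups that do not overlap. Same-numbered tumors did not deviate together (correlation across genes of 0.06 for exoCDN2, 0.04 for PBS and -0.16 for CDN2), so they were not paired. A floor of 3 counts per library was used for genes at 0.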

Additional observations from a re-analysis of the deposited data

Results flagged for a closer look

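The second-dose change with exoCDN2 differed from the change in PBS tumors at 1154 genes and from that in tumors given free CDN2 (20 µg) at 1407 genes, by edgeR's test of the difference itself. The values below are those differences on the log2 scale for the genes named in the text, each called at the same limits and each from 2 tumors per group. No difference from CDN2 was called with only the groups compared in the fit. Keratinocyte sums also fell in the PBS step, and their part in the differences from PBS was not tested.

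Among T cell genes and their factors and checkpoints, the difference from PBS was 2.25 for *Bcl6*, 5.96 for *Cd3d*, 6.84 for *Cd3e*, 7.51 for *Cd8a*, 6.34 for *Cxcr6*, 3.62 for *Havcr2*, 5.38 for *Il2rb*, 3.15 for *Lag3*, 5.67 for *Pdcd1*, 3.90 for *Runx3*, 4.66 for *Skap1*, 5.23 for *Tbx21*, 6.44 for *Tox* and 5.07 for *Trac*. That from CDN2 was 1.26 for *Bcl6*, 3.28 for *Cd3e*, 4.32 for *Cd8a*, 3.61 for *Cxcr6*, 3.37 for *Pdcd1*, 3.45 for *Skap1*, 2.33 for *Tbx21*, 1.07 for *Tcf7*, 4.13 for *Tox* and 4.32 for *Trac*. Among NK cell and cytotoxic genes and *Ccl5*, the difference from PBS was 2.64 for *Ccl5*, 4.35 for *Cd244a*, 4.79 for *Gzma*, 6.06 for *Gzmb*, 5.32 for *Klra7*, 6.10 for *Klrb1c*, 7.58 for *Klrc1*, 7.62 for *Nkg7* and 7.12 for *Prf1*. That from CDN2 was 3.15 for *Klrc1* and 2.84 for *Nkg7*. Among antigen presentation genes, the difference from PBS was 3.93 for *B2m*, 4.30 for *Cd74*, 6.19 for *Ciita*, 2.99 for *Ctss*, 3.86 for *H2-Aa*, 7.35 for *H2-DMa*, 6.51 for *H2-DMb1*, 5.67 for *H2-K1*, 6.39 for *H2-T23*, 3.41 for *Psme1* and 4.28 for *Tap1*. That from CDN2 was 3.99 for *Cd74*, 5.28 for *Ciita*, 4.14 for *H2-Aa*, 5.57 for *H2-DMa*, 5.07 for *H2-DMb1* and 1.33 for *Psme1*. Among interferon genes and their feedback, the difference from PBS was 3.92 for *Bst2*, 4.86 for *Cxcl9*, 9.76 for *Gbp10*, 4.68 for *Gbp2*, 2.38 for *Gbp5*, 8.27 for *Gbp8*, 2.87 for *Ifi204*, 3.48 for *Irf7*, 2.31 for *Isg15*, 1.96 for *Nlrc3*, 4.33 for *Oas3*, 4.25 for *Phf11d*, 1.91 for *Ptpn6*, -1.92 for *Socs2* and 1.46 for *Usp18*. That from CDN2 was -2.0 for *Cxcl10*, 3.65 for *Gbp8*, -5.36 for *Ifnb1*, -1.84 for *Isg15*, 1.88 for *Ptpn6*, -1.68 for *Socs2* and -1.24 for *Usp18*. Among myeloid, chemokine and cytokine genes, the difference from PBS was -3.09 for *Ccl22*, 3.92 for *Ccr2*, -2.91 for *Ccr7*, 2.12 for *Csf1r*, 4.14 for *Fcgr1*, 5.11 for *Lrrc25* and 6.69 for *Ly6c2*. That from CDN2 was -2.14 for *Ccl2*, -3.53 for *Ccl22*, -2.58 for *Ccr7*, -4.13 for *Cxcl1*, -5.47 for *Cxcr2*, -4.10 for *Il1b*, -4.09 for *Il6* and -5.46 for *S100a8*. Among the other genes named, the difference from PBS was 3.52 for *Apod*, -1.26 for *Aurka*, 1.63 for *Bnip3*, 2.39 for *Car9*, -1.64 for *Ccnb1*, -1.27 for *Ccnb2*, 3.27 for *Cldn5*, 2.47 for *Dmpk*, 3.31 for *Fblim1*, -1.22 for *Gm10131*, 14.98 for *Krt14* and -1.40 for *Zbtb5*. That from CDN2 was -2.21 for *Gm10131*. *Krt14* rested on 1 tumor given 2 doses of exoCDN2 and on the 2 tumors given 1 dose of PBS. No group held 4 or more tumors, so single tumors far from the rest of a group could not be tested.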

How the results depend on the processing

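Of 1260 genes called for the second against the first dose of exoCDN2, the count was 2061 with no limit on the ratio and, leaving out 1 of the 4 tumors, 175 to 1245. For PBS (186 genes) it was 389 by DESeq2, 766 with no filter, 285 with only the groups compared, and 85 to 374 with a tumor left out. For the difference from PBS (1154) it was 2045 with no filter and 494 to 1357 with a tumor left out. For the difference from CDN2 (1407) it was 2737 with no filter, 5 to 4847 with a tumor left out, and 0 by edgeR with only the 4 groups compared, where 1620 genes were higher and 1954 lower at an unadjusted p under 0.05 and no DESeq2 fit of those groups alone was made. The cause of these shifts was not tested. The replicate block left 1163 genes for exoCDN2, 793 higher and 370 lower, 186 for PBS, 1059 relative to PBS and 1039 relative to CDN2, and same-numbered tumors were not shown to be pairs.

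Taken relative to PBS, the list medians were -7.45 for interferon ligands (a fitted value set by counts of 0, as are those below, where the median over both doses of exoCDN2 is -3.88 with these genes at a floor of 3 counts), 1.64 for early interferon-stimulated genes (the other direction from -0.40), 4.25 for interferon gamma-responsive genes, -0.56 for acute cytokines, 5.0 for T cell, 3.42 for cytotoxic, 4.28 for NK cell and 4.21 for MHC class I genes. The direction also turned for *Gbp5* (2.38), *Ifit3* (1.45), *Irf1* (1.07), *Isg15* (2.31), *Socs1* (1.10), *Tnfsf10* (0.81) and *Usp18* (1.46). Some genes called in neither comparison changed sign too, for example *Cd274* (-0.91, then 1.29) and *Ccl2* (-0.33, then 0.55). With each exoCDN2 tumor left out, the medians ran from -8.24 to -7.39 for interferon ligands, -0.58 to -0.10 for early interferon-stimulated genes, 0.27 to 1.05 for interferon gamma-responsive genes, -2.18 to -0.92 for acute inflammatory cytokines, 2.84 to 3.59 for T cell genes, 1.65 to 3.00 for cytotoxic genes, 3.31 to 3.85 for NK cell genes, 1.49 to 2.00 for MHC class I presentation genes and -1.21 to -0.69 for cell cycle genes. Over 121 named and tested genes, 113 kept direction and call by DESeq2, 120 with RLE factors, 118 with all 18 tumors, 107 with no filter and 116 with the block. Relative to PBS 81 did, 23 lost their call, 10 gained one and 7 reversed. Without replicate 1 or 2 after 1 dose 70 and 100 did, and without replicate 1 or 2 after 2 doses 85 and 102. Genes under about 1 CPM, most T and NK cell genes after 1 dose among them, rest on few reads. Where such a gene was under the filter's minimum count in both tumors after 1 dose, it passed only through other tumors. A call of a rise in such a gene is a description.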
